A study of Mus musculus with 8 samples.

Results

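Semaphorins, netrins and Slits are guidance cues, and plexins, neuropilins, Robos and the netrin receptors are the proteins that read them. The 47 genes described here were taken by symbol from the deposited table of 55401 genes: 20 semaphorins, 9 plexins, 2 neuropilins, 4 netrins, 6 netrin receptors, 3 Slits and 3 Robos. No measured value was used in that choice of symbols, but the families were proposed with earlier results of these data known. The RNA came from mouse lungs of embryonic day E13.5, in 4 libraries labelled cre control and 4 labelled Tbx4tetOcre_MyrfE6_mutant. The mutant name joins Tbx4, a T-box gene of lung mesenchyme, with tetOcre, a Cre recombinase under a tetracycline-responsive promoter, and with a Myrf allele written E6. The control name also holds the word cre, but it does not say which cre transgene, if any, the controls carried. The labels give neither the Myrf alleles of the controls, nor what the E6 allele changes, the inducer, the cells that recombine, or the number of embryos in a library. They also leave unsaid whether the replicates are separate litters. P-values therefore rest on the spread of these libraries alone, which may be technical. Myrf, a membrane-bound transcription factor, measured between 107 and 120.5 CPM in the controls and between 84.4 and 92.4 CPM in the mutants, and it fell with no overlap (log2 fold change -0.37, SE 0.044, adjusted p = 0.000211). CPM are counts per 1000000 counts of the library, with library sizes adjusted by edgeR's TMM method.

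Most secreted class 3 semaphorins bind a neuropilin, which joins a class A plexin to form the signalling receptor, while transmembrane and membrane-anchored semaphorins bind plexins directly. Netrins are laminin-like secreted proteins that attract through Dcc and Neo1 and repel through the Unc5 receptors, and Slits repel through Robo receptors. All of these families were first studied in growing axons. In the lung they are also known from branching of the epithelium, from patterning of vessels and from the nerves that follow the airways.

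Total counts ran from 17799899 to 48679134 per library, the highest in mutant replicate 2. The members held 0.303% to 0.33% of all counts. Lung markers were present in every library, with Nkx2-1, the transcription factor of lung epithelium, at 175 ± 12.3 CPM in the controls against 188 ± 7.92 CPM in the mutants (SD, n = 4) and Foxf1, of lung mesenchyme, at 188 ± 15.5 CPM and 186 ± 10.9 CPM. The replicates numbered 4 of both groups came close together on the first principal component of all tested genes, with scores of -4.96 for the control and -4.12 for the mutant. The other controls scored -17.7 to -14.5 and the other mutants 12.5 to 23.9, so mutant replicate 4 stood nearer to the controls. Without mutant replicate 4 the number of members that passed was 7, and without control replicate 4 it was 4. Libraries also differed in sex-linked transcripts. Control replicates 2 and 3 held 0 and 1 counts of the Y-linked genes Ddx3y, Eif2s3y, Kdm5d and Uty. Mutant replicates 1 and 2 held Xist at 0.596 and 0.37 CPM of all counts. The other 4 libraries held both kinds of transcript, with Xist between 350.1 and 402.6 CPM. Results were therefore also computed with the Y-linked level as a covariate, in the 6 libraries with Y-linked counts and in the 4 libraries with both.

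Of the 47 members, 46 passed the filter on low counts and were tested. Sema3a, Sema3d, Sema7a and Unc5b fell in the mutant lung and Robo3 rose (edgeR quasi-likelihood test, adjusted p below 0.05 over all 15788 genes tested). The other 41 did not pass. The called share was 10.9% of tested members, and 1.49% of all genes tested were called, 0.564% higher and 0.931% lower. Since genes of these families had been seen among the changed genes before the families were chosen, the share is not independent evidence about them. Values were positive in 21 members and negative in 25, where 50% of all genes tested were positive. The median log2 fold change of the 46 members was -0.02 and that of all genes tested 6.5e-05. Among ligands 3 of 26 fell and 0 rose by edgeR, and the unadjusted p was below 0.05 for 4 positive and 5 negative values. In DESeq2 and limma-voom also 0 ligands rose. Among receptors 1 of 20 fell and 1 rose. Their median log2 fold changes were -0.02 for ligands and -0.02 for receptors. RNA of whole lungs cannot tell fewer cells of a type from less RNA per cell.

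**Figure D1:**
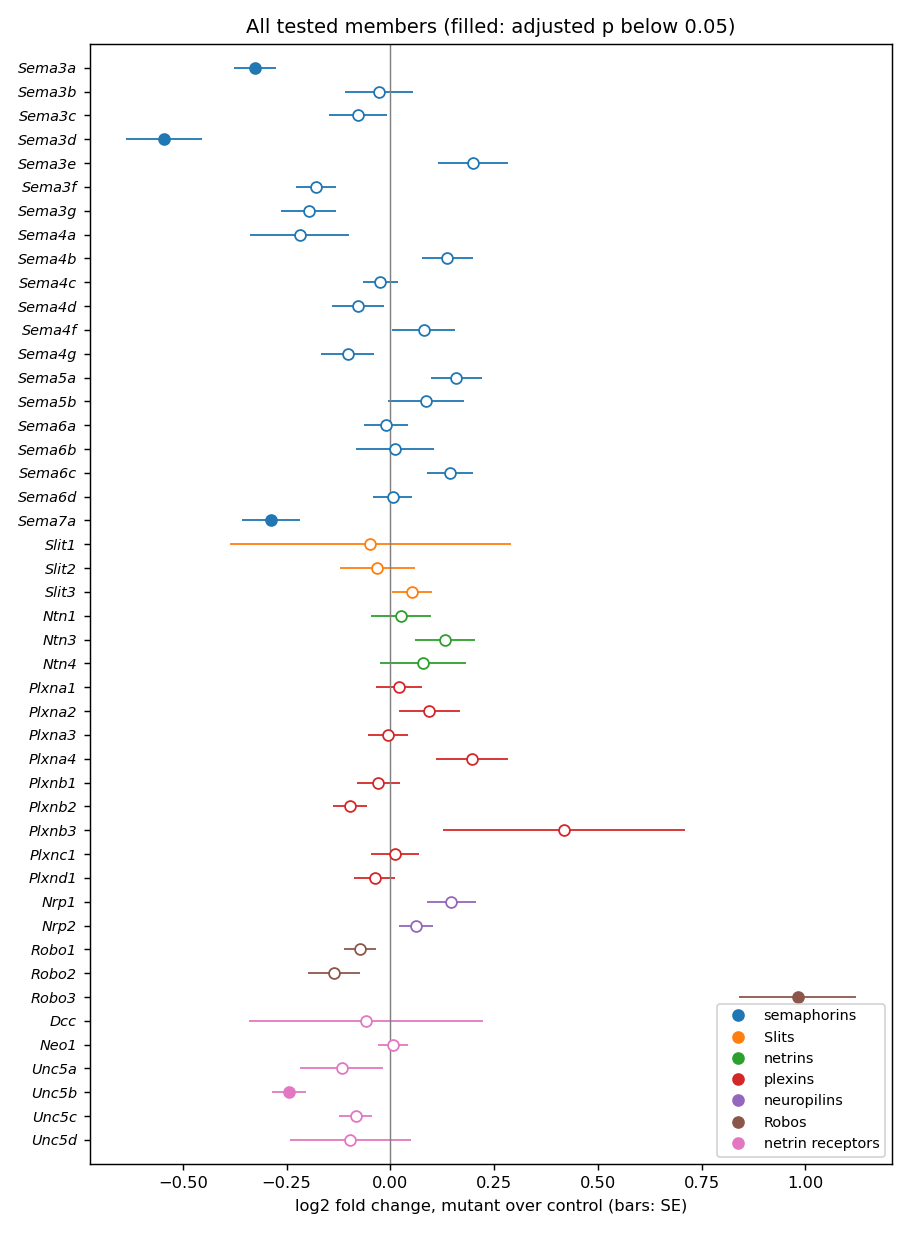
Log2 fold change of mutant over control lung for the 46 tested members, grouped by family and colour, with bars for the standard error (SE). Filled points passed at an adjusted p below 0.05. Robo3 lies at 0.98, and the 4 filled points left of 0 are Sema3a, Sema3d, Sema7a and Unc5b.

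The sequences before the start sites of the 4 genes that fell are printed to show how unlike they are. Each is the 250 bases before the RefSeq start site on GRCm38.p6, read 5′ to 3′ on the strand of the gene, with CpG dinucleotides in capitals. Sema3a is on the plus strand at chr5:13396534-13396783, Sema3d on the plus strand at chr5:12382916-12383165, Sema7a on the plus strand at chr9:57939862-57940111 and Unc5b on the minus strand at chr10:60831582-60831831.
Sema3a: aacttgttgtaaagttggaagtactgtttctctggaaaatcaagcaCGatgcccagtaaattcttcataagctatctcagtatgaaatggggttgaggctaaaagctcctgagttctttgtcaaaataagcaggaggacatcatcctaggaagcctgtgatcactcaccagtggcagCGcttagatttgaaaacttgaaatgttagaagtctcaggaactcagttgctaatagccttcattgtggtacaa
Sema3d: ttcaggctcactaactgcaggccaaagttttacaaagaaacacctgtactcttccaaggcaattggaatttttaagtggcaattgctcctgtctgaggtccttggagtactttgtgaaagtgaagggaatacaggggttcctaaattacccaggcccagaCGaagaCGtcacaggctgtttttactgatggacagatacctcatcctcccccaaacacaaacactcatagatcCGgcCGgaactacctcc
Sema7a: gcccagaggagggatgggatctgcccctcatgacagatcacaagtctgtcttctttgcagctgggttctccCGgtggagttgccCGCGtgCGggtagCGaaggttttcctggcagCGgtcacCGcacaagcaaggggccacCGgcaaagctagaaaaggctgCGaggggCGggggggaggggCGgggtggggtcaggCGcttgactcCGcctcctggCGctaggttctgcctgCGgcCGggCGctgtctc
Unc5b: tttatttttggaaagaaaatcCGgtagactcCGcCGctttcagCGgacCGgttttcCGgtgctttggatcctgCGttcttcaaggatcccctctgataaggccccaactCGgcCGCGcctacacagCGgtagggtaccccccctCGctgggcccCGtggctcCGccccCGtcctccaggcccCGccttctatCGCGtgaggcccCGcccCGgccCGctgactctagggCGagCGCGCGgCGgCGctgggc
The Sema3a and Sema3d windows held 2 and 4 CpGs and 40.8% and 46.8% G or C, while those of Sema7a and Unc5b held 17 and 27 CpGs and 66.4% and 66.8%. The median over all 32851 promoters of the RefSeq table was 6 CpGs and 52.4%. The RefSeq start of Sema3a lies 271370 bases inside the gene as the deposited table has it, so other transcripts of the gene start farther upstream.

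Motifs were searched as letters, on both strands, in the same 250 bases of each promoter. The pair CTGGCAC and CTGGTAC, the known core of MYRF sites, was in none of those 4 windows, nor was GGAATG, the known core of TEAD sites. CTGGCAC was in 4.19% of all promoters, CTGGTAC in 1.83% and GGAATG in 12.6%. Of the members, 38 had an entry, with 51 promoters in all, and 6 of these held CTGGCAC, 2 held CTGGTAC and 4 held GGAATG. Among the members that passed, Robo3 held 1 match, CTGGCAC, at chr9:37433212-37433218 (minus-strand gene). It is shown with its flanks, the match in capitals, because this was the one match in those promoters.
Robo3: ccaggggattCTGGCACtggggggggg
The match starts 43 bases before the RefSeq start and lies inside the gene as the deposited table has it. A match is a run of letters and does not show binding.

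The secreted class 3 semaphorins held both of the larger falls among the ligands. Of 7 members 2 fell and 5 did not pass, and 6 had negative log2 fold changes, with a median of -0.18. Among all genes tested 0.931% were called lower and 50% had positive values. The families were chosen with earlier results known, so these counts are not independent evidence about the class. Sema3a, which repels axons and endothelial cells through Nrp1 and class A plexins, measured 72.4, 64.3, 67.2 and 64.0 CPM in control replicates 1 to 4. In mutant replicates 1 to 4 it measured 56.5, 55.3, 50.6 and 50.8 CPM. Every mutant library lay below every control. The means were 67.0 ± 3.92 CPM and 53.3 ± 3.04 CPM, a fall of 20.2% (log2 fold change -0.33 with SE 0.0509 and adjusted p = 0.00282).

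Sema3d, known for guiding the pulmonary veins to the heart and for signalling through Nrp1, measured 22.3, 20.5, 22.1 and 16.3 CPM in the controls. The mutants held 13.6, 13.2, 15.5 and 13.51 CPM. Control replicate 4 was the lowest control and lay close above mutant replicate 3, and the groups did not overlap. From 20.3 ± 2.79 CPM to 13.96 ± 1.02 CPM the level fell by 31.4% (log2 fold change -0.54 with SE 0.0920 and adjusted p = 0.00536). The call was lost with the Y-linked covariate (log2 fold change -0.46, adjusted p = 0.0902), in the 6 libraries with Y-linked counts (-0.47, adjusted p = 0.11) and in the 4 libraries with both kinds of transcript (-0.41, adjusted p = 0.412). Sema3a kept its call in these 3 fits, at log2 fold changes of -0.37, -0.35 and -0.42 with adjusted p = 0.00989, 0.0289 and 0.0185.

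Sema3a and Sema3d share a stretch of the genome with Sema3e and Sema3c, all on the plus strand of chromosome 5 (GRCm38). Sema3d (ENSMUSG00000040254.11) runs from 12383385 to 12588948 and Sema3a (ENSMUSG00000028883.17) from 13125414 to 13602565. They lie 536466 bases apart, with 0 tested genes between them. Sema3e follows from 14025276 to 14256689 and Sema3c from 17574281 to 17730268. Neither of these passed. Sema3e, which binds Plxnd1 without a neuropilin and shapes vessels, measured 19.1, 25.6, 23.3 and 21.8 CPM in the controls against 23.4, 28.1, 27.0 and 24.3 CPM in the mutants, which overlapped (log2 fold change 0.20 with SE 0.0844 and adjusted p = 0.296). Sema3c, a cue of the cardiac outflow tract, had 26.6 ± 1.75 CPM and 25.2 ± 2.05 CPM (log2 fold change -0.08 with SE 0.0689 and adjusted p = 0.686). Gm42675, an unnamed gene model that overlaps Sema3a on its strand, measured 1.22 CPM in the controls against 0.962 CPM in the mutants, and reads in exons of both were not counted for either. Gm43719, a further gene model on the same strand and 1470 bases from Sema3a, measured 9.26 CPM in the controls against 7.11 CPM in the mutants (log2 fold change -0.39 with SE 0.113 and adjusted p = 0.0935). Its part in the Sema3a value was not tested.

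Among the other class 3 genes, Sema3f and Sema3g had negative values that did not pass. Sema3f, a ligand of Nrp2, measured 79.2, 87.2, 87.5 and 86.7 CPM in the controls and 75.4, 72.0, 72.3 and 81.7 CPM in the mutants (log2 fold change -0.18 with SE 0.0472 and adjusted p = 0.0606). Control replicate 1 lay among the mutants, so the groups overlapped. The adjusted p was 0.0433 in DESeq2, 0.0105 with no low-count filter and 0.0151 without mutant replicate 4. Its adjusted p lay between 0.0105 and 0.764 over its alternatives. Sema3g, known from arterial endothelium, measured 22.7, 21.8, 21.5 and 20.6 CPM and 19.95, 18.3, 19.7 and 17.6 CPM in the same order, with no overlap (log2 fold change -0.20 with SE 0.0663 and adjusted p = 0.158). Sema3b, another secreted ligand, had 11.7 ± 0.940 CPM in the controls against 11.5 ± 0.440 CPM in the mutants (log2 fold change -0.03 with SE 0.0811 and adjusted p = 0.922).

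**Figure D2:**
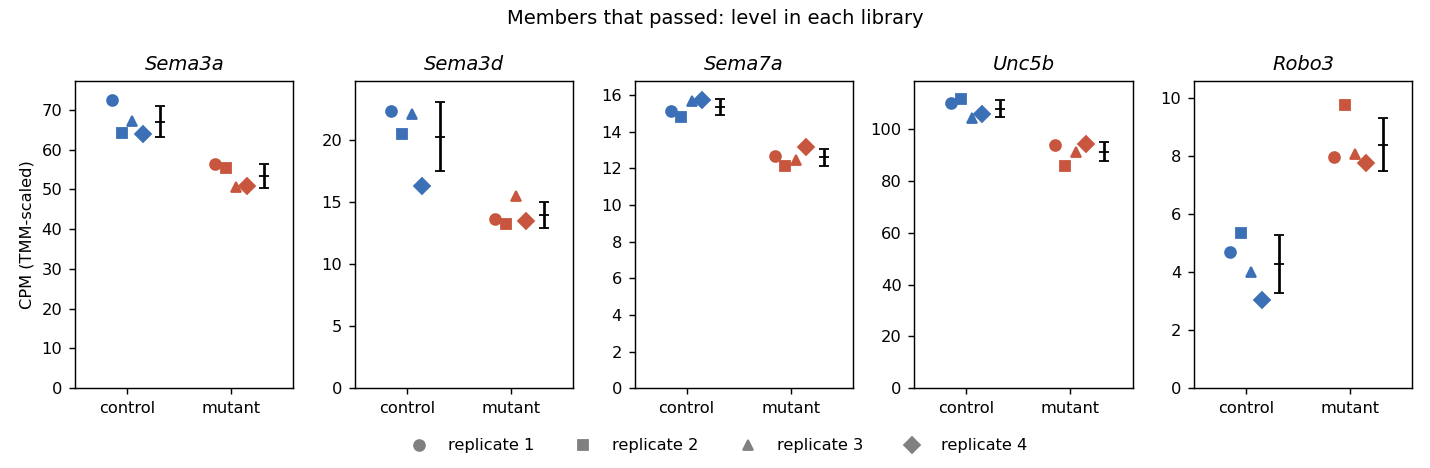
Level in TMM-scaled CPM of the 5 members that passed, with 1 point per library, the shape giving the replicate number, and a bar for the mean ± SD of 4 libraries. Groups did not overlap in any of the 5 panels. Robo3 is the one gene with the mutants on top.

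Sema7a is anchored to the membrane by a lipid and binds Plxnc1 and integrins. Its control libraries measured 15.2, 14.8, 15.7 and 15.7 CPM and its mutant libraries 12.7, 12.1, 12.4 and 13.2 CPM. Both groups were narrow and did not overlap. The mean fell from 15.4 ± 0.440 CPM to 12.6 ± 0.446 CPM, by 18.1% (log2 fold change -0.29 with SE 0.07 and adjusted p = 0.0473). This call was close to the threshold: it was lost in 14 of 20 alternatives, 7 of which leave out 1 library, and the adjusted p lay between 0.0326 and 0.502. In all 20 the log2 fold change stayed between -0.31 and -0.26. Plxnc1, its receptor, had 40.9 ± 2.66 CPM and 41.1 ± 2.56 CPM (log2 fold change 0.01 with SE 0.0569 and adjusted p = 0.957). Sema7a (ENSMUSG00000038264.8) lies on chromosome 9 from 57940112 to 57962865, plus strand.

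The transmembrane semaphorins of classes 4, 5 and 6 gave 0 calls among 12 genes by edgeR (unadjusted p below 0.05 in 3) and 0 in DESeq2 and limma-voom. Those 3 all had positive values. Over all genes tested, edgeR called 1.49%, and 13.9% had an unadjusted p below 0.05. With so low a share, 0 calls among 12 genes does not set these classes apart. Sema4b measured 23.5, 25.8, 24.6 and 23.6 CPM in the controls against 27.7, 28.0, 26.6 and 24.5 CPM in the mutants (log2 fold change 0.14 with SE 0.0624 and adjusted p = 0.333). Sema5a, which carries thrombospondin repeats, measured 52.5, 54.2, 53.8 and 45.6 CPM and 52.3, 58.8, 62.8 and 56.3 CPM (log2 fold change 0.16 with SE 0.0617 and adjusted p = 0.241). It passed with no low-count filter (adjusted p = 0.0192). Both genes overlapped between groups. Sema6c, a class 6 gene of the kind that binds class A plexins, measured 31.0, 34.8, 34.2 and 34.7 CPM in the controls. Its mutants measured 39.2, 34.9, 37.4 and 37.8 CPM, by a small margin all above the controls (log2 fold change 0.14 with SE 0.0551 and adjusted p = 0.232).

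Sema4c, a ligand of Plxnb2, had the highest level per length of any semaphorin, at 30.1 ± 0.676 CPM per kilobase of exon in the controls. It measured 143, 137, 137 and 136 CPM in the controls against 140.4, 129, 129 and 147 CPM in the mutants, with overlap (log2 fold change -0.02 with SE 0.0426 and adjusted p = 0.863). The remaining 8 genes of these classes also overlapped. Sema4a had the most negative value (log2 fold change -0.22, SE 0.119), followed by Sema4g at -0.10 and Sema4d, the ligand of Plxnb1, at -0.08. Sema5b and Sema4f had the most positive, 0.09 (SE 0.0916) and 0.08 (SE 0.0761). Sema6a, Sema6b and Sema6d lay at -0.01, 0.01 and 0.01.

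Plxnd1, Plxnb2 and Plxnb1 were the receptors with the highest levels per length, and of the 9 plexins edgeR called 0 (unadjusted p below 0.05 in 2), as did DESeq2 and limma-voom. The edgeR shares over all genes tested were 1.49% called and 13.9% at that unadjusted p, so 0 calls among 9 is near the share. Plxnd1, the endothelial receptor of Sema3e, had the highest level per length of all 47 members, 67.8 ± 4.21 CPM per kilobase in the controls. It measured 455, 529.6, 499.9 and 496 CPM in the controls against 463, 454, 491 and 523 CPM in the mutants, with full overlap (log2 fold change -0.04 with SE 0.0499 and adjusted p = 0.805). Plxnb2, a broad receptor of class 4 semaphorins in epithelium, measured 433, 454, 443 and 462 CPM and 407, 396, 417 and 457 CPM (log2 fold change -0.10 with SE 0.0407 and adjusted p = 0.284). Mutant replicate 4 was its highest mutant and lay within the control range. Without that library Plxnb2 passed, at a log2 fold change of -0.14 (adjusted p = 0.0425), and its adjusted p was above 0.05 in the other alternatives.

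Plxna4, a receptor that pairs with Nrp1 for Sema3a, measured 7.34, 8.23, 7.91 and 7.61 CPM in the controls and 8.71, 8.98, 8.98 and 8.95 CPM in the mutants, with no overlap (log2 fold change 0.20 with SE 0.0857 and adjusted p = 0.307). Of the other class A plexins, Plxna1 had 186 ± 7.43 CPM and 189 ± 16.7 CPM, a log2 fold change of 0.02 (SE 0.0549). Plxna2 lay at 0.09 (SE 0.0729) and the X-linked Plxna3 at -0.01 (SE 0.0477). Plxnb1, the receptor of Sema4d, had 266 ± 14.01 CPM and 261 ± 20.1 CPM (-0.03 on the log2 scale, SE 0.0520). Plxnb3 was close to the floor, with 7 to 13 counts in control and 13 to 31 in mutant libraries, and its log2 fold change of 0.42 had an SE of 0.292.

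Neither neuropilin passed by edgeR, DESeq2 or limma-voom, and 1 had an unadjusted p below 0.05. In edgeR, 1.49% of all genes tested passed and 13.9% had an unadjusted p below 0.05. Nrp1, which binds Sema3a and is also a co-receptor for vascular endothelial growth factor, measured 30.8, 32.8, 31.1 and 30.7 CPM in the controls against 32.7, 35.6, 38.1 and 32.1 CPM in the mutants (log2 fold change 0.15 with SE 0.0590 and adjusted p = 0.259). Control replicate 2 lay above mutant replicates 1 and 4, so the groups overlapped. Nrp2, the co-receptor for Sema3f found on lymphatic vessels and veins, had a higher level per length than Nrp1 (6.26 ± 0.286 against 3.20 ± 0.0980 CPM per kilobase in the controls). It measured 74.3, 76.9, 69.4 and 76.1 CPM and 76.4, 75.6, 78.1 and 80.0 CPM (log2 fold change 0.06 with SE 0.0418 and adjusted p = 0.56).

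**Figure D3:**
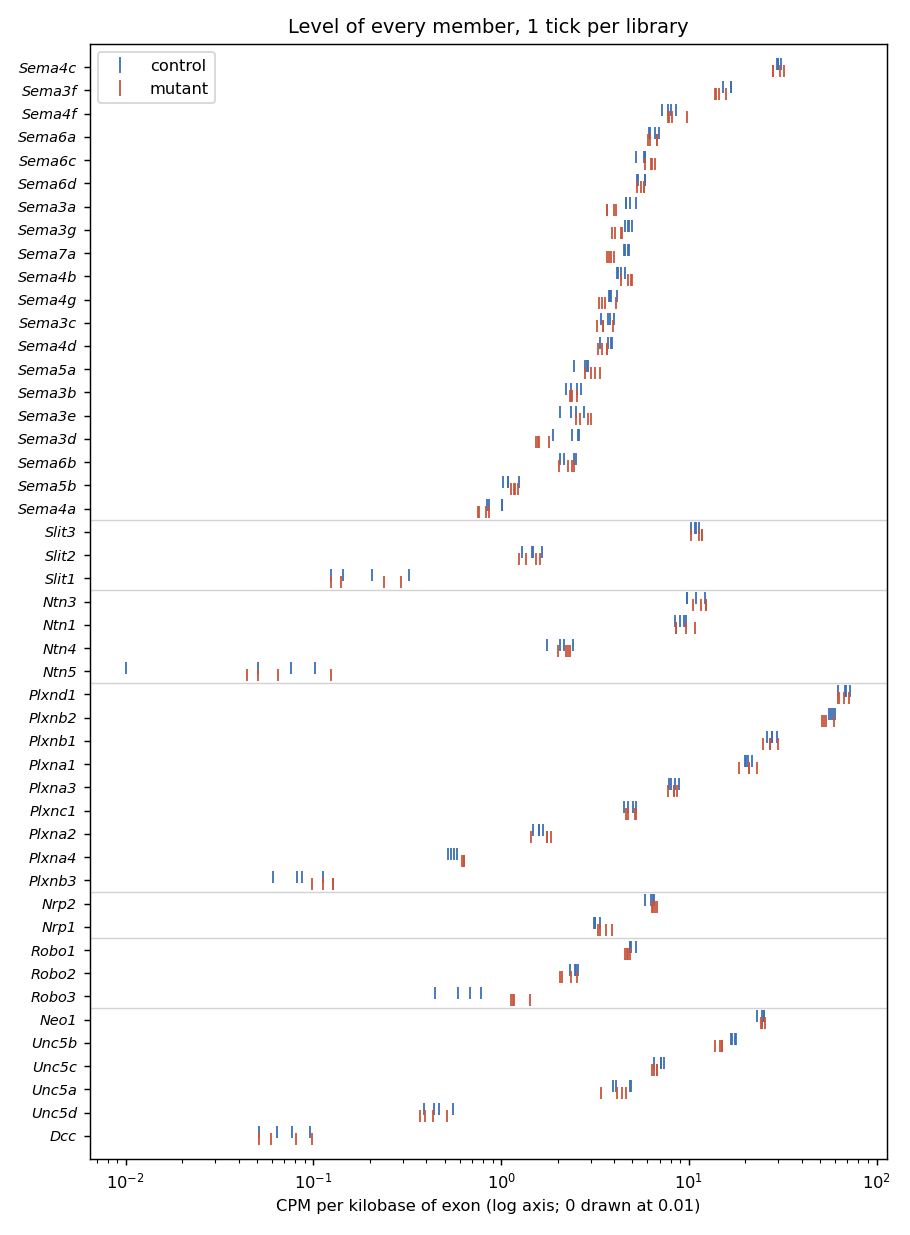
Level of each of the 47 members as CPM per kilobase of exon on a log axis, with 1 tick per library, controls above mutants, ordered within each family. Plxnd1 is the highest member and Ntn5 the lowest, with its library at 0 drawn at the left edge. Within most rows the ticks of both groups lie on top of each other.

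Slits and netrins, the other ligand families, gave 0 calls among 6 tested genes by edgeR (unadjusted p below 0.05 in 0) and 0 in DESeq2 and limma-voom. Since edgeR called 1.49% of all genes tested, and 13.9% had an unadjusted p below 0.05, these counts do not set the families apart. Slit3 was the Slit with the highest level per length, 10.8 ± 0.459 CPM per kilobase in the controls. It measured 62.3, 69.1, 66.4 and 65.5 CPM in the controls against 69.1, 62.5, 71.2 and 71.1 CPM in the mutants (log2 fold change 0.05 with SE 0.0487 and adjusted p = 0.707). Slit2 had 37.4 ± 3.78 CPM and 36.4 ± 4.24 CPM (log2 fold change -0.03, SE 0.0903). Slit1, a Slit of the nervous system, was low, with 13 to 34 counts in control and 17 to 44 in mutant libraries. Ntn3 was the netrin with the highest level per length (10.7 ± 1.14 CPM per kilobase) and measured 50.1, 55.7, 49.9 and 62.2 CPM and 62.7, 62.7, 53.5 and 59.0 CPM (log2 fold change 0.13 with SE 0.0716 and adjusted p = 0.448). Ntn1, known from lung buds, had 57.3 ± 3.48 CPM and 58.7 ± 6.69 CPM (log2 fold change 0.03, SE 0.0728). Ntn4, a netrin of basement membranes, lay at 0.08 (SE 0.104). Ntn5 had 0 to 4 counts in control and 2 to 7 in mutant libraries, was not tested, and gets no fold change. In the smallest library 3 counts correspond to 0.169 CPM, a floor for counting error only.

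Unc5b was the one netrin receptor that changed. It encodes a repulsive netrin receptor known from vessels and from control of cell survival. The controls measured 110.0, 112, 104 and 106 CPM and the mutants 93.9, 86.0, 91.4 and 94.3 CPM, with a clear gap between the groups. The level fell by 15.5%, from 108 ± 3.42 CPM to 91.4 ± 3.84 CPM (log2 fold change -0.24 with SE 0.0403 and adjusted p = 0.00443). With the Y-linked covariate it passed (log2 fold change -0.24, adjusted p = 0.0453). The call was lost in the 6 libraries with Y-linked counts (-0.24, adjusted p = 0.061) and in the 4 with both kinds of transcript (-0.21, adjusted p = 0.145), with 1.57e-05 to 0.145 over its alternatives. Unc5b (ENSMUSG00000020099.8) lies on chromosome 10 from 60762593 to 60831581, minus strand.

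The other netrin receptors did not pass, and 4 of these 5 had negative values. Neo1, which binds netrins and repulsive guidance molecules, had the highest level per length of the family, 24.5 ± 0.948 CPM per kilobase. It measured 202, 219, 219.6 and 215 CPM in the controls against 210.5, 214, 221 and 214 CPM in the mutants, the smallest difference of the family (log2 fold change 0.01 with SE 0.0356 and adjusted p = 0.964). Unc5c had 134 ± 7.15 CPM and 127 ± 3.74 CPM (log2 fold change -0.08 with SE 0.0402 and adjusted p = 0.363). Unc5a and Unc5d lay at -0.12 (SE 0.101) and -0.10 (SE 0.145) on the log2 scale. Dcc, the attractive netrin receptor of axons, was near the floor, with 12 to 24 counts in control and 16 to 33 in mutant libraries.

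Robo3 was the one member that rose and had the largest log2 fold change of the tested members. Robo3 is a divergent Robo known from axons that cross the midline of the hindbrain and spinal cord, and in mammals it binds Slits poorly. It measured 4.70, 5.36, 4.01 and 3.04 CPM in control replicates 1 to 4. Mutant replicates 1 to 4 measured 7.97, 9.73, 8.05 and 7.77 CPM. The lowest mutant lay well above the highest control, and mutant replicate 2 stood above the other mutants. The level went from 4.28 ± 0.989 CPM to 8.38 ± 0.911 CPM, 97.4% higher (log2 fold change 0.98 with SE 0.141 and adjusted p = 0.00138). The call held in all 20 alternatives, with log2 fold changes from 0.85, without control replicate 4, to 1.12, in the 6 libraries with Y-linked counts (adjusted p between 4.67e-13 and 0.0373). The level itself stayed low, 0.625 ± 0.144 CPM per kilobase in the controls, the lowest of the 3 Robos.

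Robo3 (ENSMUSG00000032128.15) lies on chromosome 9 from 37415669 to 37433246, minus strand, 554 bases from Robo4, the Robo of endothelium, on the plus strand. Counting used strand. Robo4 measured 53.9, 64.0, 63.9 and 62.1 CPM in the controls against 64.4, 61.8, 67.5 and 64.5 CPM in the mutants, with overlap (log2 fold change 0.08 with SE 0.0524 and adjusted p = 0.533). Robo1 and Robo2, the main Slit receptors, had negative values and did not pass. Robo1, the Robo with the highest level per length at 4.96 ± 0.167 CPM per kilobase, measured 80.1, 86.0, 80.2 and 81.5 CPM in the controls and 78.7, 75.7, 79.8 and 77.6 CPM in the mutants, with the groups apart by a small margin (log2 fold change -0.07 with SE 0.0391 and adjusted p = 0.421). Robo2 measured 42.1, 39.6, 43.5 and 42.6 CPM and 35.6, 35.1, 39.9 and 43.1 CPM, with mutant replicates 3 and 4 inside the control range (log2 fold change -0.14 with SE 0.0621 and adjusted p = 0.337).

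Groups did not overlap in 9 of 46 tested members, 19.6%, and in 7.37% of all genes tested. Mutants were higher in 3, Robo3, Sema6c and Plxna4, against 3.31% of all genes, and lower in 6, Sema3a, Sema3d, Sema3g, Sema7a, Unc5b and Robo1, against 4.06%. At an unadjusted p below 0.05 were 15 members, 7 with positive and 8 with negative values, where 13.9% of all genes tested passed that threshold.

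The summed level of neuron markers, given beside Robo3, was higher in every mutant than in every control library. Of 10 listed neuron markers 9 were tested and 1 rose, Ret, a receptor tyrosine kinase of autonomic nerve cells, with 7 of the 9 values positive. Among all genes tested 0.564% were called higher. The summed level of the list was 41.2 to 46.4 CPM in the controls against 52.9 to 61.2 CPM in the mutants. That sum was led by Gap43, Ret and Stmn2, with means of 15.1, 12.9 and 6.95 CPM in the controls. In the mutants their means were 17.7, 16.7 and 9.37 CPM, and Gap43 and Stmn2 did not pass. None of the 10 was at 0 in any library. Among the mutants, Robo3 was highest in replicate 2, where the neuron sum was 53.3 CPM. Tubb3, a neuronal tubulin, had 3.25 ± 1.049 CPM and 5.53 ± 0.863 CPM (log2 fold change 0.75 with SE 0.189 and adjusted p = 0.0596), and Prph, a filament protein of peripheral neurons, 0.886 ± 0.336 CPM and 1.95 ± 0.795 CPM (log2 fold change 1.14 with SE 0.333 and adjusted p = 0.109). Elavl4 and Snap25, further neuron markers, had log2 fold changes of -0.08 and -0.0032. Neural crest and glia markers summed to 167 to 201 CPM in the controls against 155 to 192 CPM in the mutants, a sum led by Ednrb, an endothelin receptor, at 115 ± 12.2 CPM and 98.7 ± 17.1 CPM (log2 fold change -0.22 with SE 0.150 and adjusted p = 0.602). Yet 5 of the 7 tested markers of this list had positive values. Among them were the neural crest transcription factors Foxd3 (log2 fold change 0.84 with SE 0.3201 and adjusted p = 0.225) and Sox10 (log2 fold change 0.22 with SE 0.141 and adjusted p = 0.526). The groups of Foxd3 did not overlap, but its level was near the floor, at 0.332 ± 0.0366 CPM in the controls against 0.598 ± 0.0370 CPM in the mutants. The part of these cells in the Robo3 result was not tested.

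The summed level of markers of mesothelium, the covering layer of the lung, was lower in every mutant than in every control library. Of 8 listed markers 4 fell, Wt1, Upk3b, Lrrn4 and Gpm6a, with 6 values negative and 2 positive. Among all genes tested 0.931% were called lower and 0.564% higher. Aldh1a2 and Upk1b had negative values that did not pass and overlapped between groups. Krt19 and Msln had positive values, at log2 fold changes of 0.08 and 0.19, and did not pass. The summed level was 258 to 280.1 CPM in the controls against 187 to 225 CPM in the mutants, with none at 0. Msln, a defining surface protein of mature mesothelium, was low in both groups, at 0.723 ± 0.173 CPM and 0.828 ± 0.315 CPM. Endothelial markers, given because Unc5b is known from vessels, summed to 851 to 922 CPM in the controls against 913 to 977 CPM in the mutants, all 7 with positive values and 1, Emcn, that rose. Of 4 lymphatic endothelium markers 3 had negative values and 1 a positive value, and 0 passed. The lymphatic sums overlapped, at 122 to 131 CPM in the controls against 118 to 128 CPM in the mutants. Epithelial markers summed to 675 to 696 CPM in the controls against 709 to 736 CPM in the mutants. That sum, like the neuron sum, was higher in every mutant than in every control library. The lung markers summed to 1071 to 1107 CPM and 1033 to 1059.7 CPM, with Wnt2 alone fallen among 7. Their sum, like that of mesothelium, was lower in every mutant library. Among 4 macrophage markers 3 had negative values and Mrc1, a mannose receptor, fell (log2 fold change -0.29 with SE 0.0649 and adjusted p = 0.0334), with sums of 67.6 to 77.9 CPM in the controls against 65.6 to 69.9 CPM in the mutants. All 5 smooth muscle markers, all 5 mesenchyme markers and the 3 tested heart muscle markers had positive values, and Nppa, an untested heart gene, was at 0 in some libraries. The part of these cell types in the changes was not tested.

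**Figure D4:**
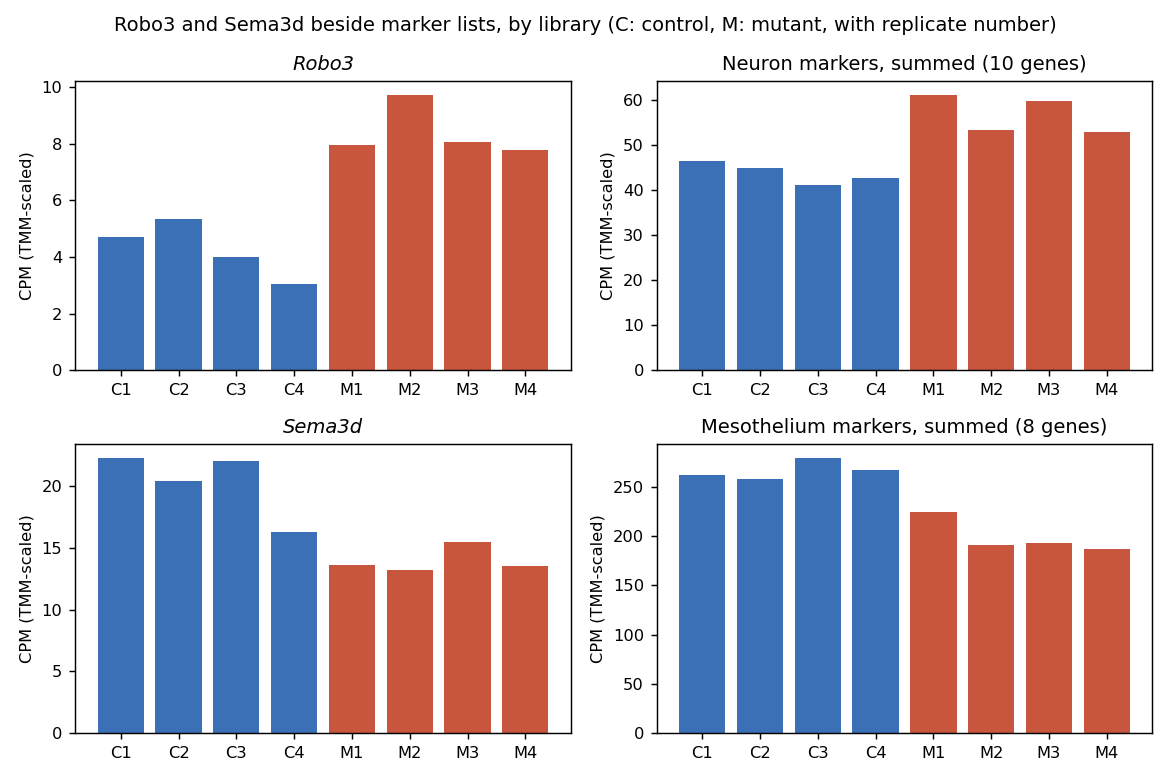
TMM-scaled CPM by library for Robo3 beside the summed neuron markers and for Sema3d beside the summed mesothelium markers, with C for control, M for mutant and the replicate number. Neuron markers lie at 52.9 CPM or more in the mutants and at 46.4 CPM or less in the controls. Mesothelium markers lie at 225 CPM or less in the mutants.

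Genes that act with these families inside the cell or at its surface were read from a list of 72, of which 70 were tested. In edgeR 1 of them rose, 0 fell and 69 did not pass, a called share of 1.43%, near the 1.49% of all genes, and the median log2 fold change was 0.02. At an unadjusted p below 0.05 were 8 with positive and 6 with negative values, and DESeq2 called 4. Dpysl3, which encodes a collapsin response mediator protein, one of a family that binds the cytoskeleton downstream of Sema3a, measured 68.6, 65.7, 63.0 and 60.6 CPM in the controls against 78.1, 74.7, 80.8 and 76.5 CPM in the mutants. All mutants lay above all controls (log2 fold change 0.26 with SE 0.0447 and adjusted p = 0.00506). The call was lost in the 6 libraries with Y-linked counts (adjusted p = 0.0743) and in the 4 with both kinds of transcript (adjusted p = 0.114), with 1.83e-07 to 0.114 over its alternatives. L1cam, an adhesion protein of axons that associates with Nrp1, came next by p (log2 fold change 0.52 with SE 0.133 and adjusted p = 0.0555), a gene named after its values were seen.

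**Figure D5:**
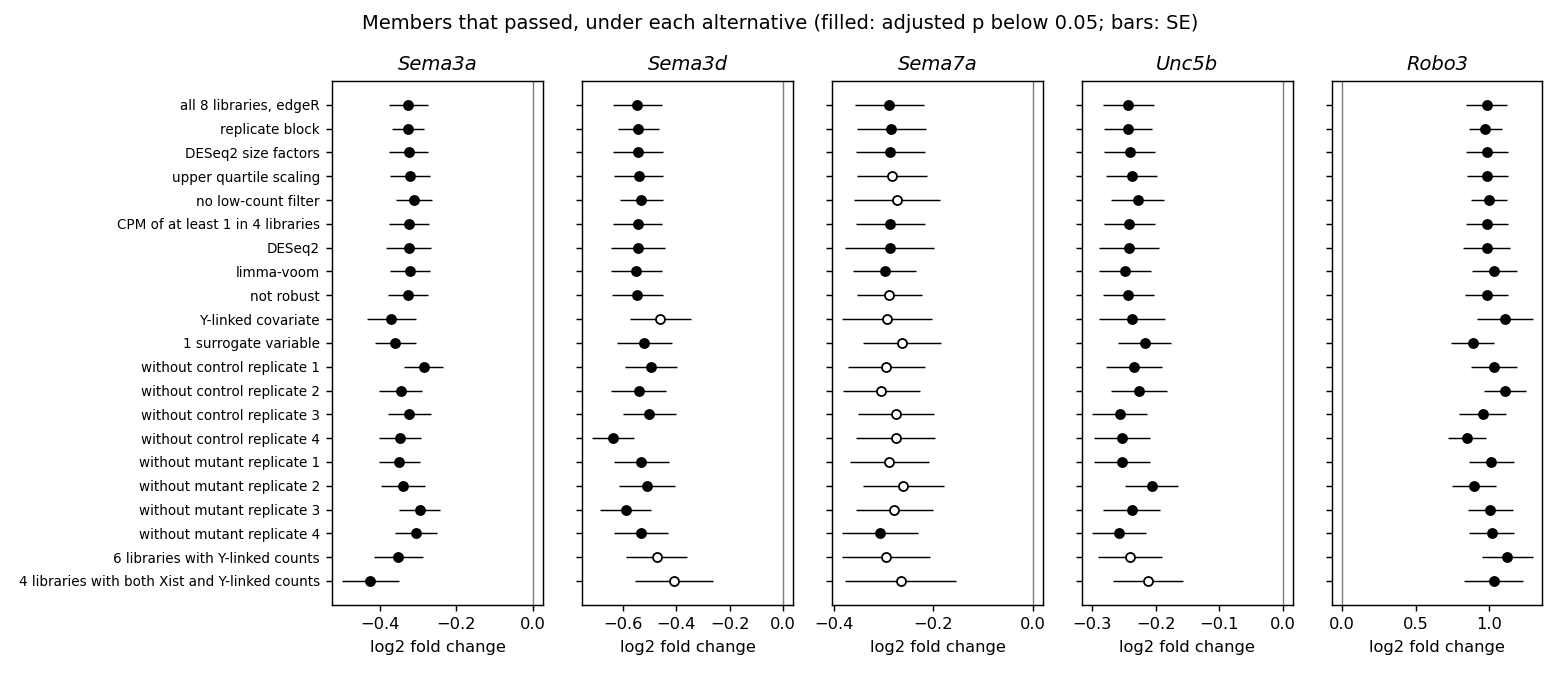
Log2 fold change with SE bars of the 5 members that passed, under all 8 libraries in edgeR and under each of 20 alternatives, where filled points had an adjusted p below 0.05. Sema3a and Robo3 are filled in all 20. Sema7a is open in 14, Sema3d in 3 and Unc5b in 2.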

How the data were processed

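The values used are raw read-pair counts, not normalized, which the authors deposited as a single gene-by-library table. Per the file headers, featureCounts 1.6.4 counted read pairs over exons of GENCODE vM25 with strand option 2, without multi-mapping reads or reads shared by several genes. STAR and the builds GRCm38 and mm10 appear in the submitters' processing notes, without a STAR version. The table also holds an exon length in bases per gene, used only to compare levels between genes.

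Symbols were matched for 55141 of 55401 gene IDs. All 8 libraries entered 1 fit in edgeR 4.0.16 (R 4.3.3) with its expression filter (minimum count 10), TMM scaling, robust quasi-likelihood F tests, two-sided, no covariate, and Benjamini-Hochberg adjustment over 15788 genes at 0.05. CPM are TMM-scaled, ± is SD over 4 libraries, and SE belongs to the log2 fold change. Libraries of a group varied 2.9 to 8.9 times more than sampling alone gives, so none was a re-sequenced copy of another. The ratio cannot tell separate preparations of the same RNA from separate embryos. The fit was tested on simulated data.

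The members and lists were chosen with earlier results of these data known. Full values are given for members with an adjusted or unadjusted p below 0.05 and for the member of each family with the highest level per length. Alternatives used DESeq2 1.42.0, limma 3.58.1 and sva 3.50.0, other scalings and filters, a replicate block, a Y-linked covariate and each library left out. The fits on 6 and 4 libraries were chosen after seeing the data.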

Additional observations from a re-analysis of the deposited data

Results flagged for a closer look

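Within each group of 4 libraries, the gap between the highest or lowest library and its nearest neighbour was compared with the whole range, by Dixon's criterion with a critical value of 0.829. Of 92 groups checked, 5 passed, where chance gives about 1 in 20. Robo3 in mutant replicate 2 measured 9.73 CPM, above 7.77 to 8.05 CPM in the other mutants. Nrp1 in control replicate 2 measured 32.8 CPM, above 30.7 to 31.1 CPM in the other controls. Control replicate 1 was low for Sema3f, at 79.2 CPM against 86.7 to 87.5 CPM, and for Sema6c, at 31.0 CPM against 34.2 to 34.8 CPM. Plxna4 in mutant replicate 1 measured 8.71 CPM, below 8.95 to 8.98 CPM. Without mutant replicate 2 the log2 fold change of Robo3 was 0.90 (adjusted p = 0.00556).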

How the results depend on the processing

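The 23 genes followed gave 460 values over 20 alternatives, of which 424 kept their direction and side of the threshold, 21 lost the call, 6 gained it and 9 changed sign. The changes of sign were in 3 genes near 0 that passed in none of their fits. Sema4c lay at 0.0029 with 1 surrogate variable, 0.0102 without mutant replicate 2 and 0.0072 without mutant replicate 3, with -0.0604 to 0.0102 over the libraries left out. Plxnd1 lay at 0.0399 with the Y-linked covariate, 0.0012 with 1 surrogate variable, 0.0225 in the 6 libraries and 0.0974 in the 4 libraries. Neo1 lay at -0.0208 without control replicate 1 and -0.0017 without mutant replicate 3, with -0.0208 to 0.0211 over the libraries left out. Over all genes, 236 changed, 89 higher and 147 lower. The counts were 791 (340 and 451) with no low-count filter, 380 (140 and 240) in DESeq2, 142 (56 and 86) without robust fitting, 131 (56 and 75) with 1 surrogate variable, 95 (52 and 43) with the Y-linked covariate, 49 (25 and 24) in the 6 libraries with Y-linked counts and 87 (55 and 32) in the 4 libraries with both kinds of transcript. With 1 library left out, 96 to 479 changed, 48 to 139 higher and 47 to 340 lower. The count was 100 without control replicate 1, 121 without control replicate 2, 96 without control replicate 3, 118 without mutant replicate 2 and 479 without mutant replicate 4.

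Members changed numbered 5, and 3 with the Y-linked covariate, 2 in the 6 libraries and 2 in the 4 libraries. In these 3 fits 2, 1 and 1 members fell, 1, 1 and 1 ligands changed, and 1 receptor changed in each of the last pair. With no low-count filter 2 members rose, the added one being Sema5a. Leaving out 1 library gave 4 to 7 members, 2 to 4 ligands, 2 to 3 receptors and 1 to 4 genes of the signalling list. That list gave 5 with no low-count filter, 4 in DESeq2, 2 with 1 surrogate variable, 2 without mutant replicate 2, 4 without mutant replicate 4, and 0 in the 6 and in the 4 libraries. The cause of these shifts was not tested, although the fits on 6 and 4 libraries also hold fewer samples. Other scalings moved the median of all genes by at most 0.00501 on the log2 scale.

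Deviations of libraries with the same replicate number correlated at 0.0125 to 0.181, over 0.1 in 1 of 4 pairs. Between different numbers the correlations ran from -0.171 to 0.133. Of 8 libraries 5 correlated best with their own number. These values do not settle whether the numbers mark pairs. With the replicate number as a block, 541 genes changed, 220.0 higher and 321 lower. The block gave 6 members, adding Sema3f (adjusted p = 0.0286), and 4 genes of the signalling list. Low counts kept Ntn5 out of the test and went with the widest SEs of the members tested, 0.282 for Dcc, 0.338 for Slit1 and 0.292 for Plxnb3.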
